A study of Mus musculus with 12 samples.

Results

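The Vmn1r genes encode the type 1 vomeronasal receptors, and they were followed here as a family that a liver is not known to use, in livers of mouse fetuses labelled wild type or macroH2A1 macroH2A2 double knockout, after a pair of histone variants. Members were the genes whose platform symbol is Vmn1r followed by a number and that have a probe set naming no other gene. This gave 117 members of 19935 genes with a probe set of their own, and for the 1 member with more than 1 such probe set, Vmn1r208, the brighter on average was taken. The reference gene table lists 231 Vmn1r genes with a number, of which 45 lie only on probe sets that name several genes and 69 have no listed probe set; neither kind entered the member list.

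The study labelled 12 whole-liver RNA samples of fetuses at 18.5 days post coitum, strain 129/S6 (taconic) for every sample, and hybridised them to 12 mouse gene arrays. A first group of 6 samples is labelled wild type, and a second group of 6 is labelled macroH2A1 macroH2A2 double knockout; how the alleles were made and which parts of the genes they remove is not stated there. Embryos of both genotypes were mixed and carried by wild-type recipient females, and no group received a treatment. Litter, recipient and hybridisation batch are not given in the labels, and nothing there says that each array came from its own fetus, so p-values measure the spread between these samples, part of which may be technical.

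On the label checks, the targeted gene Macroh2a1 lay between 10.14 and 10.52 on the log2 scale of the deposited values in wild type and between 9.51 and 9.67 in the double knockout, with no overlap; Macroh2a2 lay between 9.09 and 9.52 and between 8.71 and 9.58, which overlap. The 7 hepatocyte markers measured had means between 13.55 and 14.20. The labels call every sample male, and the arrays went against this. Xist, the RNA that coats the inactive X chromosome in females, lay between 12.91 and 13.08 on all 12 arrays. The Y-linked genes Eif2s3y, Uty and Kdm5d, which males express broadly, lay between 4.08 and 4.22, between 4.65 and 4.99 and between 5.01 and 5.24. Those 3 genes therefore had values inside the range of the Vmn1r genes on every array of both genotypes. Of 9 chromosome Y genes measured, 8 had means at or below the 95th percentile of the Vmn1r means, 6.10, and the exception was Sry, the testis-determining gene, at 8.36. The samples are called here only by genotype.

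**Figure D1:**
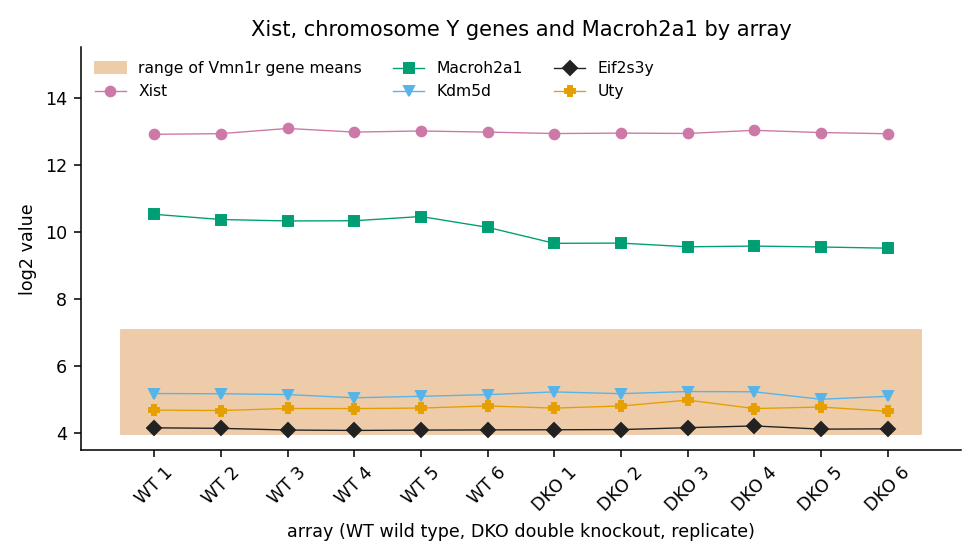
Log2 values of Xist, Macroh2a1 and 3 chromosome Y genes on each array (WT wild type, DKO double knockout, with the replicate number); the shaded band spans the 117 Vmn1r means, 3.98 to 7.07. Xist lies near 13 on all 12 arrays, while Eif2s3y, Uty and Kdm5d lie inside the band.

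Vomeronasal receptors are receptors of sensory neurons in the vomeronasal organ of the nose, where they detect pheromones and other chemical signals and pass them on through the G protein subunit Gnai2 and the ion channel Trpc2. Each neuron is known to express a single receptor gene of this family while the others stay silent. In other tissues the genes are generally silent, so the value of their probe sets in liver serves as a measure of array background. MacroH2A replaces ordinary H2A in nucleosomes and is known mainly from silent chromatin, such as the inactive X chromosome, which is why a family of silent genes is of interest in a macroH2A knockout.

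Sequences before the annotated gene starts were taken from RefSeq (GRCm38.p6), where 103 of the 117 members matched by gene ID and 14 did not. Vmn1r193 had the highest mean level of the members, Vmn1r170 the lowest, and Vmn1r24 and Vmn1r58 had the smallest p of those with higher and lower means in the double knockout. The 250 bases before each start are shown 5′ to 3′ on the gene's strand, with CG pairs and TATAAA, on either strand, in capitals. The positions are chr13:22219821-22220070, minus strand; chr7:23605925-23606174, plus strand; chr6:57956532-57956781, minus strand; and chr7:5413146-5413395, minus strand.
Vmn1r193: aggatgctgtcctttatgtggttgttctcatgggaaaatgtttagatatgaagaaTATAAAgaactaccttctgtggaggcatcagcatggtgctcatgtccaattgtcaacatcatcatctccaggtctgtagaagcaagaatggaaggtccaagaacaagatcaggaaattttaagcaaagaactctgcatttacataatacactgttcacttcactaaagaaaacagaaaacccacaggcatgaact
Vmn1r170: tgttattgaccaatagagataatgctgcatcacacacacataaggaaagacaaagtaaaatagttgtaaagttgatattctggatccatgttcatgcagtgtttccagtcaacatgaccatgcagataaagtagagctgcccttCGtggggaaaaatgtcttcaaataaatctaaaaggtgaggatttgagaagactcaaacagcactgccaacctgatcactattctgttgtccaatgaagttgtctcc
Vmn1r24: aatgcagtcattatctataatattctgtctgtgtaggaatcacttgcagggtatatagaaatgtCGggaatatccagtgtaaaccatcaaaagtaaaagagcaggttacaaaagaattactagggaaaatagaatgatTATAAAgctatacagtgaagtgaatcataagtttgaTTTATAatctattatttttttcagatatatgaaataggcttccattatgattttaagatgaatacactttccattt
Vmn1r58: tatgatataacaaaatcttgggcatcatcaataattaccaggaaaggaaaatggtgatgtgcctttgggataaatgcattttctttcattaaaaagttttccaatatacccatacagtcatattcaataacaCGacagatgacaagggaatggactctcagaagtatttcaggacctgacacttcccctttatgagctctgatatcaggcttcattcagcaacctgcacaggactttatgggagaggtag
Few capitals appear in these 4 sequences because CG pairs are rare in them. Vmn1r193 has no CG pair in this window, and each of the other 3 has 1.

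The same poverty in CG pairs ran through the family. The 103 member windows had a median of 1 CG pair, with a range of 0 to 5, and 41 of them, or 39.8%, had none. Over 17492 windows of protein-coding genes the median was 10, and 7.34% had none. The G and C content had a median of 34.0% in members and 55.2% in protein-coding genes. TATAAA was found on either strand in 35 member windows, or 34.0%, against 12.4% of protein-coding windows. All letters of TATAAA are A or T, and the part of the low G and C content in this gap was not tested. The letters CCCNNGGG, the core that the Ebf factors of olfactory neurons are known to bind, were in none of the 103 member windows on either strand. They were in 2.67% of the windows of Olfr genes, in 6.98% of those of Vmn2r genes and in 13.3% of protein-coding windows. All fixed letters of this core are C or G, and the part of the low G and C content in these shares was not tested. At 83 of the 103 members, or 80.6%, the annotated start is itself an ATG, against 9.55% of protein-coding genes. For those members the annotation begins at the start codon, so the window precedes the coding sequence and need not hold the site where transcription begins. Olfr genes, the odorant receptors of the main nose, had windows with a like makeup, with a median of 1 CG pair, 44.4% with none and TATAAA in 39.7% of 863. These features are described with no test. Member windows with TATAAA had a median array level of 5.21 (n = 35) and those without 4.83 (n = 68), both over ranges that overlap almost wholly, 4.29 to 7.07 and 3.98 to 6.97.

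The Vmn1r genes lay at the bottom of the range of values. Their means over the 12 arrays ran from 3.98 to 7.07 with a median of 4.91, and the middle of the family, from the 25th to the 75th percentile, spanned 4.55 to 5.39 on the log2 scale. Of the 117 members, 89 were below the 10th percentile of all genes, 5.40, and 113 below the 25th, 6.42; all 117 were below the median of all genes, 7.81. Only 4.34% of all genes had a mean below the median member, while 19.8%, or 3956 genes, had a mean at or below the 95th percentile of the members. The highest member had 36.7% of all genes below it. Scanner files were not used here, so these values give no detection call, and a value in this range shows neither that RNA was present nor that it was absent.

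**Figure D2:**
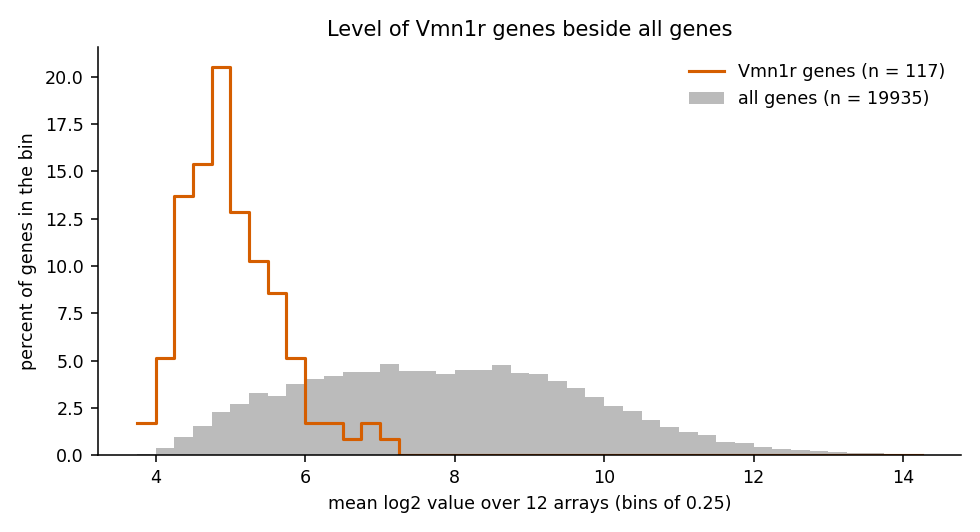
Percent of genes in each bin of 0.25 log2 units of the mean over 12 arrays, for all 19935 genes (grey bars) and the 117 Vmn1r genes (line). The Vmn1r genes lie in the left part of the distribution, up to 7.07, with a median of 4.91 against 7.81 for all genes.

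The members of highest value were Vmn1r193, Vmn1r208, Vmn1r86, Vmn1r80, Vmn1r174 and Vmn1r233, with means of 7.07, 6.97, 6.83, 6.57, 6.38 and 6.32. These 6, like all the members, encode receptors with no known role in liver. Vmn1r193 measured 6.75, 7.43, 7.41, 6.89, 6.64 and 7.39 on wild-type replicates 1 to 6 and 6.59, 6.62, 6.86, 7.21, 7.67 and 7.42 on double-knockout replicates 1 to 6. The genotypes overlapped, and both held high and low arrays. Vmn1r174 ranged from 5.90 to 7.24 in wild type and from 5.54 to 7.16 in the double knockout, and had the largest SD within genotype of any member, 0.54. At the other end Vmn1r170, Vmn1r23 and Vmn1r35 had means of 3.98, 3.998 and 4.07 and SDs within genotype of 0.059, 0.050 and 0.067. The order of members is not an order of RNA amounts, because a probe set's value also depends on its probes. The 2 probe sets of Vmn1r208 show this within 1 gene, with means of 6.97 and 5.90, a gap of 1.07. A further 23 probe sets name several Vmn1r genes and no other gene, and had a median level of 5.83, with a range of 4.18 to 7.79; as near-identical genes share such probes, so may members whose probe set names 1 gene.

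The silent-gene level was not the same on every array. The median over the 117 members was 4.84, 4.86, 4.91, 4.83, 4.84 and 5.05 on wild-type replicates 1 to 6, and 4.75, 4.80, 4.87, 4.95, 5.13 and 5.06 on double-knockout replicates 1 to 6. The 3 highest were double-knockout replicates 5 and 6 together with wild-type replicate 6. Double-knockout replicates 1 and 2 were the lowest, so the wild-type range lay within the wider double-knockout range. Averaged over arrays, the median was 4.89 ± 0.09 for wild type against 4.93 ± 0.15 for the double knockout (SD over 6 arrays per genotype), a gap smaller than the SD of either group. Of the 117 members, 59 had their highest value on double-knockout replicate 5, 19 on double-knockout replicate 6 and 19 on wild-type replicate 6. These are 50.4%, 16.2% and 16.2% of members. Of the 3956 genes at or below the members' 95th percentile, 31.0%, 17.0% and 9.58% had their highest value on these arrays. Double-knockout replicates 2 and 1 held the lowest value of 34 and 29 members. How many of the 3956 genes had their lowest value on those arrays is not given here.

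The low end of the array moved with the members, and its upper part did not. The 25th percentile over all probe sets was 6.28 and 6.25 on double-knockout replicates 5 and 6, and 6.24 on the sixth wild-type array, against 6.13 to 6.21 on the other 9 arrays, and the SD over all probe sets was lowest on the same 3 arrays, 2.00, 2.01 and 2.01, against 2.05 to 2.08. The 75th percentile was lower on those 3, 9.05 to 9.06, than on the other 9, 9.10 to 9.15. Other receptor families had their highest medians on the same arrays. The median of 1015 Olfr genes was 5.87 on double-knockout replicate 5 and 5.29 to 5.76 on the other arrays of that genotype; that of 34 Tas2r genes, the bitter taste receptors, was 5.61 and 5.12 to 5.51; and that of 45 Vmn2r genes, the type 2 vomeronasal receptors, was 5.14 and 4.77 to 4.997. Quantile normalization, which gives all arrays the same distribution, brought the member medians on the 3 arrays to 5.03, 4.97 and 4.998, with the other 9 between 4.80 and 4.94.

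**Figure D3:**
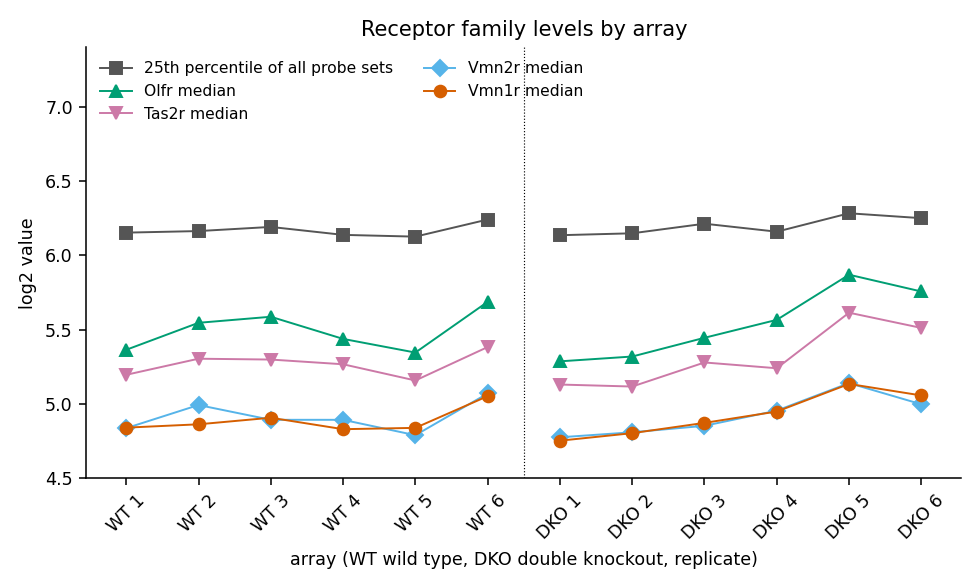
Median log2 value of Vmn1r (n = 117), Vmn2r (45), Tas2r (34) and Olfr (1015) genes and the 25th percentile of all probe sets on each array (WT wild type, DKO double knockout, with the replicate number). All 5 lines are high on WT 6, DKO 5 and DKO 6; the Vmn1r line runs from 4.75 on DKO 1 to 5.13 on DKO 5.

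The shift between arrays grew with the level of the member. On double-knockout replicate 5, the 39 dimmest members lay a median of 0.06 above their own median over the 12 arrays, the 39 of middle level 0.24 and the 39 brightest 0.35. On wild-type replicate 6 these values were 0.04, 0.13 and 0.19, and on double-knockout replicate 2 they were -0.06, -0.07 and -0.15. Members thus moved together over arrays: pairs of members had a median correlation of 0.54 over the 12 arrays, which all members share, and 0.18 after quantile normalization. The SD within genotype had a median of 0.17 in the 59 brighter members and 0.09 in the 58 dimmer ones.

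Against this background, no Vmn1r gene passed the test for a change in the double knockout. Of the 117 members, 0 passed limma's test at an adjusted p under 0.05 in either direction, where 0.0150% of all genes did, all of them lower (0.00% higher). The smallest adjusted p of any member was 0.99. At an unadjusted p under 0.05 there was 1 member with a higher and 1 with a lower mean, or 0.85% each, where 2.64% and 1.28% of all genes had such values. No member had 6 double-knockout values all above or all below the 6 wild-type values, where 0.110% and 0.100% of all genes did.

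The differences were small. They ran from -0.15 to 0.16 on the log2 scale, double knockout minus wild type, with a median of 0.01, equal to the 0.01 of all genes. The 95% interval of limma had an upper bound under 0.32 log2 units in 104 of the 117 members and under 0.58, the log2 of 1.5-fold, in all 117; the highest upper bound, that of Vmn1r76, was 0.52, or 1.44-fold. On the other side 116 members had a lower bound above a 1.5-fold fall, and Vmn1r174, with a bound of -0.71, did not. These bounds are on array values, which compress changes near background, so they limit the change in signal and not that in RNA.

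**Figure D4:**
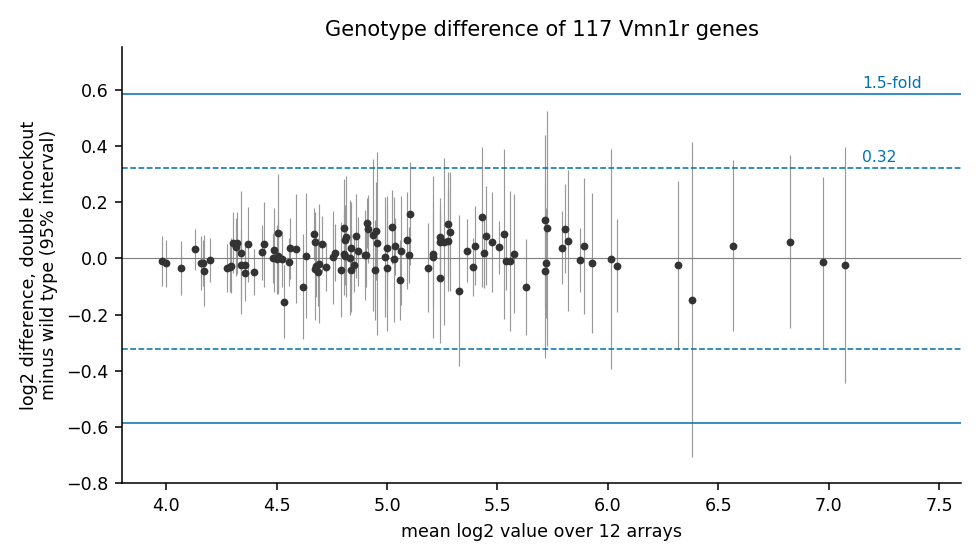
Log2 difference between genotypes (double knockout minus wild type) with its 95% limma interval against the mean log2 value, for each of the 117 Vmn1r genes; lines mark 0.32 log2 units (dashed) and 1.5-fold (solid) in both directions. Points lie between -0.15 and 0.16, and intervals are generally wider for the brighter members.

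Of the members with higher means, Vmn1r24 had the smallest p. It measured 4.92, 4.79, 4.85, 4.81, 4.90 and 4.79 on wild-type replicates 1 to 6 and 4.96, 4.998, 4.89, 4.91, 5.05 and 5.005 on double-knockout replicates 1 to 6. Here 4 arrays of the double knockout exceeded the highest of wild type, and replicates 3 and 4 overlapped with wild type. The log2 difference was 0.13 with a standard error of 0.04 (limma unadjusted p = 0.0096, adjusted p = 0.99). The next 5 were Vmn1r220, Vmn1r229, Vmn1r235, Vmn1r54 and Vmn1r65, with log2 differences of 0.09, 0.16, 0.10, 0.11 and 0.12 and unadjusted limma p from 0.069 to 0.17. For Vmn1r235, 5 arrays of the double knockout exceeded the highest of wild type, 4.93, while replicate 1, at 4.75, lay below the lowest, 4.78.

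Of the members with lower means, Vmn1r58 had the smallest p. It measured 4.61, 4.70, 4.72, 4.55, 4.58 and 4.49 on wild-type replicates 1 to 6 and 4.57, 4.43, 4.39, 4.25, 4.52 and 4.55 on double-knockout replicates 1 to 6. Double-knockout replicates 2, 3 and 4 lay below every wild-type array and the others overlapped. The log2 difference was -0.15 with a standard error of 0.06 (limma unadjusted p = 0.023, adjusted p = 0.99). The next 5 were Vmn1r5, Vmn1r85, Vmn1r180, Vmn1r218 and Vmn1r203, with log2 differences of -0.05, -0.10, -0.10, -0.08 and -0.05 and unadjusted limma p from 0.22 to 0.28.

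Counting directions alone, 69 of the 117 members, or 59.0%, had a higher mean in the double knockout, and 59.0% of all genes did as well. This count depended on which arrays were included. Without double-knockout replicate 5 it became 41, without double-knockout replicate 6 it became 52, and without wild-type replicate 6 it became 88. The range was 41 to 89 over the 12 fits that each leave out an array, and the 89 came from leaving out an array other than these 3. Leaving out those 3 arrays of narrowest spread together gave 36 of 117, or 30.8%, and a median difference of -0.03, where 57.5% of all genes had higher means. After quantile normalization 52 members, or 44.4%, had a higher mean, against 53.3% of all genes. With the spread of each array as a covariate 39 members, or 33.3%, did, against 61.5% of all genes. The median difference was -0.01 and -0.02 in those fits. The number of members past the threshold was 0 in each of them.

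A rise in 1 sample would hardly show in a group mean, so single values were also examined. Of the 1404 member values, 20 lay over 0.5 log2 units above the member's own median: 14 on double-knockout replicate 5, 2 on double-knockout replicate 6 and 4 on wild-type replicate 6. No value lay over 1 log2 unit above it. These are the 3 arrays with the highest 25th percentile over all probe sets, and after quantile normalization the numbers were 6, 1 and 1. The highest was Vmn1r76, which lay at 6.61 on double-knockout replicate 5, 0.90 above its median, and measured 5.31, 5.29, 5.61, 5.93 and 5.93 on the other arrays of that genotype and 5.24 to 6.05 in wild type. The 20 values came from 16 members, and the other 101 members had no such value. How often other genes of like level had such values is not given here. Over 0.5 below their own median lay 2 wild-type and 4 double-knockout values, among them Vmn1r174 at 5.54 on double-knockout replicate 3.

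**Figure D5:**
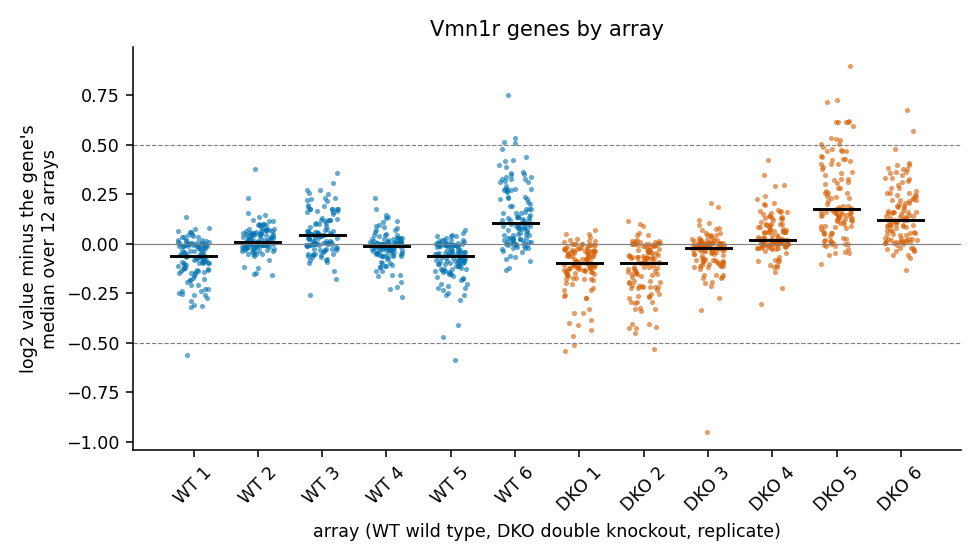
Log2 value of each of the 117 Vmn1r genes minus its own median over the 12 arrays, by array (blue wild type, WT; orange double knockout, DKO; black bars are medians; dashed lines mark 0.5 either way). The points above 0.5 lie on WT 6 (4), DKO 5 (14) and DKO 6 (2).

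The members lie on few chromosomes, where the family is known to form clusters: 41 on chromosome 6, 34 on chromosome 7, 27 on chromosome 13, 14 on chromosome 17 and 1 on chromosome 1. Median levels were 4.76, 5.22, 4.90 and 5.07 on chromosomes 6, 7, 13 and 17. Median differences between genotypes were 0.002, 0.03, 0.02 and 0.05 in the same order. Higher means were found for 22 of 41, 19 of 34, 16 of 27 and 11 of 14 members. Over all genes 59.0% had higher means, as did 73.5% of the 3956 genes at or below the members' 95th percentile of level. Differences between the chromosomes were not tested. The 2 members with an unadjusted p under 0.05, Vmn1r24 and Vmn1r58, lie on chromosomes 6 and 7. No chromosome held a member past the threshold.

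The other receptor families gave the same counts at the threshold. Of 45 Vmn2r, 1015 Olfr and 34 Tas2r genes, 0 passed limma's adjusted threshold in either direction; at an unadjusted p under 0.05 there were 1, 15 and 1 with higher means and 0, 2 and 0 with lower means. Median differences were 0.03, 0.04 and 0.03. Of these genes 71.1%, 76.7% and 70.6% had higher means, as did 73.5% of the 3956 genes at or below the 95th percentile of the Vmn1r means, which include the members. Without double-knockout replicate 5 the family shares were 42.2%, 43.0% and 38.2%, and that of the 3956 genes was 59.8%. Without wild-type replicate 6 the family shares were 86.7%, 85.9% and 85.3%, and that of the 3956 genes was 78.4%. Whether the Vmn1r share of 59.0% differs from these was not tested.

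Of 34 genes of vomeronasal and olfactory signalling and of receptor choice, 30 were measured, with 18 higher and 12 lower means and a median difference of 0.01; 0 passed. Those of smallest p were Ebf1, a factor of olfactory neurons and of early B cells, Adcy2, an adenylyl cyclase of vomeronasal neurons, and Rtp3, a receptor transport protein gene that liver is known to express. Ebf1 had a mean of 8.36 ± 0.11 over the wild-type arrays against 7.98 ± 0.21 over the double-knockout arrays (SD over 6 arrays per genotype; limma unadjusted p = 0.00047, adjusted p = 0.58). Adcy2 and Rtp3 had log2 differences of 0.15 and -0.11 (limma adjusted p = 0.99 each). Of 7 markers of vomeronasal and olfactory neurons measured, 2 had means at or below the 95th percentile of the Vmn1r means, 6.10. These were Cnga2, the olfactory channel, at 5.31, and Gng8, a G protein subunit of vomeronasal neurons, at 6.07. Gng8 thus lay above most Vmn1r genes, of which 109 had means below 6. The mature neuron marker Omp lay at 7.11, Gnao1 at 7.05, Gng13 at 6.79, Stmn3 at 7.54 and Adcy3 at 7.63. Of these, Omp, Stmn3 and Adcy3 lay above the highest Vmn1r mean, 7.07. Trpc2 was listed but not measured. The mean over the 7 markers ran from 6.73 to 6.84 in wild type and from 6.72 to 6.85 in the double knockout. Among markers of neighbouring tissue, the list mean of 6 exocrine pancreas genes ran from 7.29 to 11.10 in wild type and from 7.45 to 11.09 in the double knockout. All 6 had higher means in the double knockout, with a median log2 difference of 1.06, far larger than that of any Vmn1r gene, and 0 passed the test (limma adjusted p = 0.99 each; Ctrb1, 10.87 ± 2.54 against 12.01 ± 2.15, SD over 6 arrays per genotype). The list mean of 5 intestine genes ran from 7.23 to 8.45 and from 7.17 to 7.38. The part of both lists in the values of the Vmn1r genes was not tested.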

How the data were processed

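Total liver RNA, 250 ng a sample, was labelled with the Ambion WT Expression Kit, per the labels' protocols. The deposited table holds 1 log2 value per probe set and array, made with Affymetrix Expression Console, per the submitters' processing notes. Version, summarisation, background correction and build were not given in the sources used here. A base of 2 was inferred from the range of values. Of 28815 probe sets, 21780 name 1 gene, 1605 several, and 5430 are unlisted in the platform's gene table; symbols were updated through RefSeq (GRCm38.p6). No pair of columns was identical.

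A limma 3.58.1 model (lmFit, eBayes; R 4.3.3) was fitted to all 12 arrays with genotype as its only term, and 2-sided p-values were adjusted by Benjamini-Hochberg over 19935 genes, with 0.05 as threshold. The number of arrays limits the precision. The script was tested on simulated data. Members and lists were chosen with earlier results of these data known. Named members are the 6 of highest and 3 of lowest level, the 6 of smallest p in each direction and the 3 of largest SD within genotype; Sry was chosen after its value was seen. Alternatives were quantile normalization, median centring, leaving out dim genes, a trended robust prior, weights per array, a block for the replicate number, array spread as a covariate, other probe set choices and leaving out arrays.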

Additional observations from a re-analysis of the deposited data

Results flagged for a closer look

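Examined were 50 groups of 6 values, those of the named members, the targeted genes and the member median in each genotype. Of these, 4 held an array far from the other 5. In a single group chance alone gives about 1 in 20. The groups are not independent, since members moved together over arrays, so this rate is no measure for the 4 found. On wild-type replicate 6, Vmn1r86 lay at 7.22 with the next array at 6.79, Vmn1r23 at 3.93 with the next lowest at 4.002, and the median over all Vmn1r genes at 5.05 with the next array at 4.91. On double-knockout replicate 5, Vmn1r54 lay at 5.34 with the next array at 5.06.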

How the results depend on the processing

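In every fit run, 0 members passed the threshold in either direction, as did 0 Vmn2r, Olfr, Tas2r and pathway genes, and the median difference stayed between -0.03 and 0.05. After quantile normalization, 0 members with higher and 2 with lower means had an unadjusted p under 0.05, 1 wild-type and 7 double-knockout values lay over 0.5 above the member's own median, and 1 pathway gene had an unadjusted p under 0.05. Leaving out genes below the 10th percentile left 28 members, the brighter ones by construction: 15 had higher means, 0 an unadjusted p under 0.05, the family level was 5.78 (wild type) and 5.77 (double knockout), 19 had an upper bound under 0.32 and 28 under the log2 of 1.5-fold and of 2-fold, and 2 wild-type values lay over 0.5 above. Members with higher means and unadjusted p under 0.05 numbered 2 with array weights and 2 with the replicate block; the replicate numbers were not treated as pairing the arrays, since 1 of the 6 same-number correlations, which ran from -0.18 to 0.49, was under 0.1; the other 5 were over it and the own number was the best match for 4 of 6, a hint of pairing from the data, and the block changed no other count of members by over 1.5 times. With array spread as a covariate, 5 members with lower means had an unadjusted p under 0.05, and 39 had higher means; the cause was not tested. Adding 23 probe sets of several Vmn1r genes gave a wild-type level of 5.005 and 8 wild-type and 33 double-knockout values over 0.5 above. Without the 3 arrays of narrowest spread, chosen after seeing the data, 36 members had higher means, 0 with higher and 3 with lower means had an unadjusted p under 0.05, and 1 double-knockout value lay over 0.5 above; Macroh2a2 differed by 0.056. Leaving out each array in turn gave 41 to 89 members with higher means, 1 to 3 with higher and 0 to 1 with lower means at an unadjusted p under 0.05, 2 to 6 wild-type and 3 to 18 double-knockout values over 0.5 above, 0 to 1 members without overlap, 1 to 3 pathway genes at an unadjusted p under 0.05, and -0.17 to 0.0064 for Macroh2a2, which changed sign without double-knockout replicate 5. The shares of all genes at an unadjusted p under 0.05, or without overlap, are not given here for these other fits. The member counts from them therefore cannot be set against other genes. Most members lay at the low end of the array's signal, which limits what their values can show.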
